A study of Mus musculus with 2 samples.

Results

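The genes described are the glucocorticoid receptor gene Nr3c1, the mineralocorticoid receptor gene Nr3c2 and 8 genes known to respond to glucocorticoids: Tsc22d3, Sgk1, Dusp1, Errfi1, Cebpb, Cebpd, Cdkn1a and Fkbp5. They were taken by name from the transcript tables of both libraries, with reads of every class of transcript model added, and are 10 of the 16310 annotated genes with at least 1 read. The genes were chosen with their values in these libraries in view, so their levels and their difference between the libraries are given as a description with no test. Long-read RNA sequencing, in which a single read covers most or all of a cDNA molecule, had been applied to total RNA of whole heart from 14 day old females of the B6CASTF1/J strain, an F1 hybrid. There was 1 group with 2 libraries, replicates 1 and 2, with no treatment or allele other than the strain's own named, and both held spike-ins. In the labels they are numbered as biological replicates, but both carry the same donor and the animal of replicate 2 is named in different ways, so the spread between them may be technical.

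Glucocorticoids, corticosterone in mice, bind a receptor that chaperones hold in the cytoplasm. The bound receptor enters the nucleus, where it sits on glucocorticoid response elements or on other transcription factors, and it raises some genes and lowers others within hours. Cardiomyocytes carry both the glucocorticoid and the mineralocorticoid receptor, which share response elements, and heart has little of the enzyme that inactivates corticosterone in the kidney.

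The libraries held 896941 and 972159 reads, with 12223 and 12825 of these on spike-ins. Levels are in CPM, the reads of a gene over all reads other than spike-ins and scaled to a common total, so that 1 read was worth 1.13 CPM in replicate 1 and 1.04 in replicate 2. A count of 0 allowed up to 3 reads, or 3.39 and 3.13 CPM. A read stands for 1 cDNA, so CPM was not divided by transcript length. Intervals are at 95% and cover counting error only. The labelled tissue carried its markers: 5 cardiomyocyte genes (Myh6, Actc1, Myl2, Tnni3 and Ryr2) summed to 37312 and 37671 CPM. Markers of other cells were also present, with sums of 6271 and 6082 CPM for 5 fibroblast genes and 476 and 486 for 5 endothelial genes. In whole tissue, fewer cells of a type and less RNA per cell cannot be told apart.

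The sequences below are upstream sequence and coding starts of 4 of the steroid-responsive genes, shown for the recognition sequences in the former and for the alternative beginnings of the proteins in the latter. They are the mouse reference sequence (GRCm38, the build called mm10), which is C57BL/6J, and the CAST allele of the hybrid was not separated. The first set is the 250 bases before 4 transcription starts in RefSeq's GRCm38.p6 annotation, read 5′ to 3′ on the gene's strand. For Dusp1 it stops where the first exon of Dusp1-202, which begins upstream of the RefSeq start, is reached, after 203 bases. For Sgk1-202 (chr10:21993640-21993889, + strand), the capitals mark the glucocorticoid response element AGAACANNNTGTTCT. For Sgk1-201 (chr10:21994416-21994665, + strand), they mark TATAAA, the letters of the TATA box. For Errfi1 (chr4:150854820-150855069, + strand) and Dusp1 (chr17:26508520-26508722, - strand), they mark TGACGTCA, the cyclic AMP response element.
Sgk1-202 promoter: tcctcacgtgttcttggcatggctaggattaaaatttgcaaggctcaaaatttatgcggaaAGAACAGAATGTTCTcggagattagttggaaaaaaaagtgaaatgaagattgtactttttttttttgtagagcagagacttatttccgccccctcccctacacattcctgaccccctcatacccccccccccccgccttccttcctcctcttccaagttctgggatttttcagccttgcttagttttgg
Sgk1-201 promoter: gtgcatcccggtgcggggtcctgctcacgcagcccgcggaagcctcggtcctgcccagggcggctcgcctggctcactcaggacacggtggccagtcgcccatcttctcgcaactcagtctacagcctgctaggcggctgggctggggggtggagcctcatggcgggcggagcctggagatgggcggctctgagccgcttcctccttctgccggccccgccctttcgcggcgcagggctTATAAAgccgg
Errfi1 promoter: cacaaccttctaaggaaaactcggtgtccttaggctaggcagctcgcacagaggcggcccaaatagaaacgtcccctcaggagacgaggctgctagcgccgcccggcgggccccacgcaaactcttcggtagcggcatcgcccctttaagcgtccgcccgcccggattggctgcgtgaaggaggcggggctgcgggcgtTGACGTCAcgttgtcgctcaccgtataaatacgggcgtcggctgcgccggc
Dusp1 promoter: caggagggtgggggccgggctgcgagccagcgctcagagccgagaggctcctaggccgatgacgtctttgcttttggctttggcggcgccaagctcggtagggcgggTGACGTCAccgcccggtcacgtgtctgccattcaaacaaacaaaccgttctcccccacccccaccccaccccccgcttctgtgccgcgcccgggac

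Each motif was searched on both strands of 300-base windows, 250 before and 50 after a start, in 32851 RefSeq windows, of which 17 belonged to 8 of the 10 genes; Nr3c1 and Cebpd had no entry. The full element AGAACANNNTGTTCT was in 3 of all windows (0.00913%), and 1 of them was that of Sgk1-202, where its first base (chr10:21993701-21993715) was 189 bases before the start. Its core ACANNNTGT, which lies within the full element, was in 6.85% of all windows and in 2 Sgk1 windows, that of Sgk1-202 and 1 further upstream. TGACGTCA was in 1.79% of windows and lay 51 bases before the Errfi1 start and 143 bases before the Dusp1 start. TATAAA was in 13.6% of windows and in 4 of the 17, of which 2 were Sgk1 windows and the others those of Cebpb and Errfi1. The letters say only what is in these windows; receptor binding was not measured.

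The second set is the beginning of the coding sequence in alternative forms of Tsc22d3 and Sgk1, from GENCODE M21 transcripts, with the start codon ATG in capitals. It lies in the first exon of Tsc22d3-201, Sgk1-202 and Sgk1-201, but in the second exon of Tsc22d3-203. Tsc22d3-201 was read at chrX:140542848-140542967 and Tsc22d3-203 at chrX:140598322-140598441, both on the - strand, and both runs stop at 120 bases. Sgk1-202 (chr10:21994064-21994181, + strand) and Sgk1-201 (chr10:21994750-21994825, + strand) end with the exon, after 118 and 76 bases.
Tsc22d3-201 coding start: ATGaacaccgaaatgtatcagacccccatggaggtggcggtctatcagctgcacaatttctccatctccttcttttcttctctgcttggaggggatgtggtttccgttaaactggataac
Tsc22d3-203 coding start: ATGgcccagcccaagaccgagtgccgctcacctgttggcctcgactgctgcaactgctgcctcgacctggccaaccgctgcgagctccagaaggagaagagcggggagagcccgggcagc
Sgk1-202 coding start: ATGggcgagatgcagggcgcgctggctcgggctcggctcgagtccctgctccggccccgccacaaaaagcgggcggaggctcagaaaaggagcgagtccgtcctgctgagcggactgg
Sgk1-201 coding start: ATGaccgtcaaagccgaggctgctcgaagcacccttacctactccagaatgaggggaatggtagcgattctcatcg

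Nr3c1 (chr18:39410545-39519421, - strand), the receptor itself, had 36 reads in replicate 1 and 42 in replicate 2, or 40.7 and 43.8 CPM (42.2 ± 2.18, SD, n = 2). Nr3c2 (chr8:76899442-77245012, + strand), the receptor for aldosterone that also binds corticosterone, had 9 and 8 reads, or 10.2 and 8.34 CPM (9.26 ± 1.30, SD, n = 2). For both receptors the libraries differed by less than the counting error. The log2 ratio of CPM, replicate 2 over replicate 1, was 0.11 (-0.57 to 0.79) for Nr3c1 and -0.29 (-1.86 to 1.26) for Nr3c2. Nr3c1 took 80% of the reads of the receptor pair in replicate 1 (exact interval 65.4 to 90.4%) and 84% in replicate 2 (70.9 to 92.8%). The transcripts of the receptors are long: the annotated model that took most Nr3c1 reads, Nr3c1-203, spanned 6436 bases, and Nr3c2-203 spanned 5675.

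Nr3c1 is known for alternative first exons that hold no coding sequence and join a common second exon. Of 30 and 35 spliced reads usable for this, 13 and 19 began in the first exon of Nr3c1-203 (chr18:39490568-39490674; 43.3% and 54.3%). A further 10 and 9 reads began in an exon whose splice donor is annotated, but not in this combination (chr18:39489477-39489888; 33.3% and 25.7%). Nr3c1-204, which starts in the common exon, had 2 and 4 reads (6.67% and 11.4%). The intervals of these shares overlapped between the libraries. The third exon of Nr3c1-203 can end at either of 2 splice donors that lie 3 bases apart, and the longer choice is known to insert an arginine codon in the DNA-binding domain. The shorter exon was on 28 of the 30 reads of replicate 1 and on 31 of the 35 of replicate 2. The longer exon was on 2 and 4 reads, or 6.67% (0.82 to 22.1%) and 11.4% (3.20 to 26.7%). This splice choice was chosen for display after its values were seen.

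For Nr3c2, 6 and 5 usable spliced reads were found. Nr3c2-203 had 5 of 6 in replicate 1 and 2 of 5 in replicate 2, which is too few to compare forms. Of all reads of the mineralocorticoid receptor gene, 3 and 1 were on incomplete models and 0 and 2 were of the genomic class, which holds reads within a gene that match no splicing pattern.

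**Figure D1:**
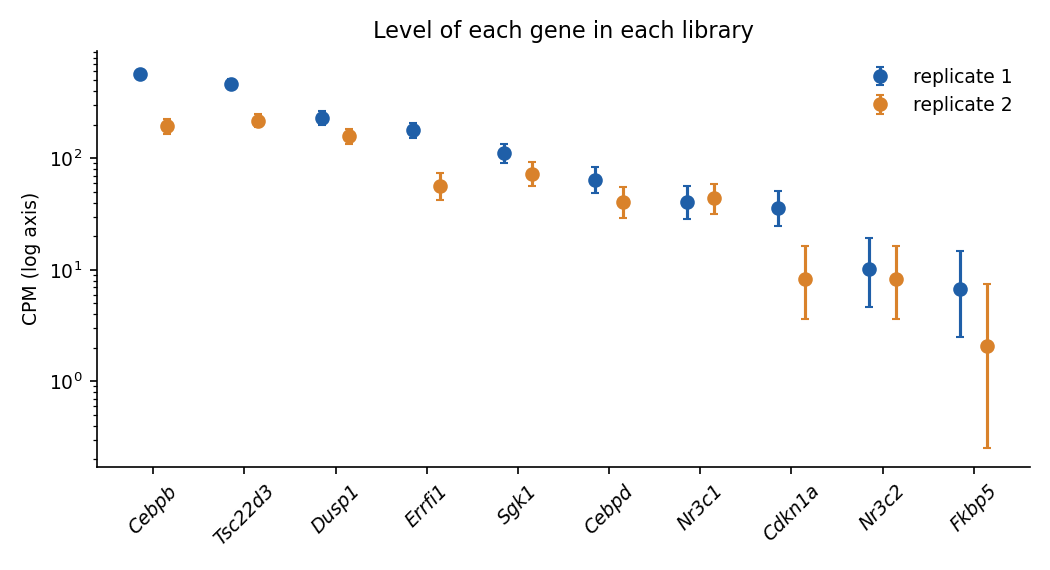
CPM (log axis) of the 10 genes in replicate 1 (blue) and replicate 2 (orange), ordered by their mean, with bars for 95% Poisson intervals, which cover counting error only. The points of Cebpb (571 and 193 CPM) lie apart, while those of Nr3c1 (40.7 and 43.8 CPM) lie beside each other. The genes were chosen with these values in view, so the gaps are only described.

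Cebpb (chr2:167688915-167690418, + strand), a bZIP transcription factor of the acute-phase and fat cell programmes, was the highest by mean level, with 505 reads (571 CPM) in replicate 1 and 185 (193 CPM) in replicate 2 (382 ± 267, SD, n = 2). Replicate 1 was 2.96-fold higher (2.50 to 3.52), a log2 ratio of -1.57 (-1.82 to -1.32) for replicate 2 over replicate 1. Every read of Cebpb in both libraries was on its annotated single-exon model. Cebpd (chr16:15887286-15891031, + strand), a related factor that can pair with it, was lower in level at 57 and 39 reads (64.4 and 40.7 CPM). Its log2 ratio was -0.66 (-1.29 to -0.05). All Cebpd reads were likewise on a single-exon annotated model.

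Tsc22d3 (chrX:140539528-140600659, - strand) encodes GILZ, a leucine zipper protein that carries part of the anti-inflammatory action of glucocorticoids. It had 410 and 209 reads, or 463 and 218 CPM (341 ± 174, SD, n = 2), which was 2.13-fold higher in replicate 1 (1.80 to 2.52; log2 ratio -1.09, -1.34 to -0.85). Sgk1 (chr10:21882184-21999903, + strand), a kinase that acts on ion channels, had 98 and 70 reads, or 111 and 73.0 CPM (91.9 ± 26.7, SD, n = 2). Its log2 ratio was -0.60 (-1.07 to -0.15). Fkbp5 (chr17:28399094-28517527, - strand), a cochaperone that lowers the receptor's affinity for hormone, had only 6 and 2 reads, or 6.78 and 2.08 CPM. With so few reads the interval of its log2 ratio of -1.70 ran from -5.04 to 0.78, and it did not reach the minimum of 10 reads over both libraries.

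Dusp1 (chr17:26505590-26562128, - strand), a phosphatase that switches off MAP kinases, had 204 and 151 reads, or 231 and 157 CPM (194 ± 51.7, SD, n = 2). Its log2 ratio was -0.55 (-0.86 to -0.24), a smaller difference than that of Cebpb. Errfi1 (chr4:150853919-150868892, + strand), also called Mig6, inhibits receptors of the EGF family and had 157 and 54 reads, or 177 and 56.3 CPM (117 ± 85.7, SD, n = 2). Replicate 1 was 3.15-fold higher (2.30 to 4.38; log2 ratio -1.66, -2.13 to -1.20). Cdkn1a (chr17:29090976-29100727, + strand) encodes the cell cycle inhibitor p21 and had 32 and 8 reads, or 36.2 and 8.34 CPM (22.3 ± 19.7, SD, n = 2). Its log2 ratio of -2.12 had an interval of -3.45 to -0.97, so the size of the difference was poorly fixed.

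The order of the levels was not the same in both libraries. In replicate 1, Cebpb (Poisson interval 522 to 623 CPM) was above Tsc22d3 (420 to 511), while in replicate 2 Tsc22d3 (189 to 249) and Cebpb (166 to 223) overlapped. Errfi1 (151 to 207) was above Sgk1 (89.9 to 135) in replicate 1, and their intervals overlapped in replicate 2 (42.3 to 73.4 and 56.9 to 92.2). By mean level the order was Cebpb, Tsc22d3, Dusp1, Errfi1, Sgk1, Cebpd, Nr3c1, Cdkn1a, Nr3c2 and Fkbp5. Neighbours from Cebpb down to Sgk1 differed by less than the larger of their SDs, as did Cebpd and Nr3c1, and Cdkn1a and Nr3c2. The 10 genes summed to 1711 CPM in replicate 1 and 800.6 in replicate 2 (1256 ± 644, SD, n = 2).

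Of the 9 genes with at least 10 reads over both libraries, 8 had the lower CPM in replicate 2, all but Nr3c1, where 49.9% of all 9907 such genes did. The difference was over 1.5-fold downward in 6 of the 9 (11.5% of all genes) and over 1.5-fold upward in 0 (11.0%). Dusp1 lay just short of that limit at 1.46-fold and Sgk1 just past it at 1.52-fold. The median log2 ratio was -0.66 over the 9 genes and 0.00 over all. These counts describe how the genes were chosen, and nothing is read from them. The ratios moved little with the scaling: that of Cebpb was -1.57 with TMM totals and -1.53 with DESeq2 size factors, and that of Nr3c1 was 0.10 and 0.14.

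**Figure D2:**
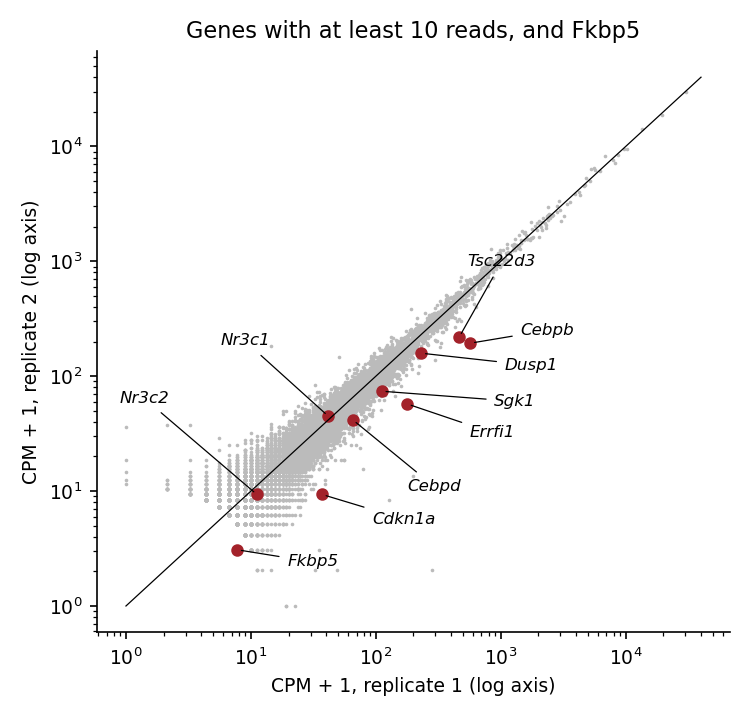
CPM + 1 in replicate 1 (x, log axis) against replicate 2 (y, log axis) for 9907 genes with at least 10 reads over both libraries (grey) and for the 10 genes (red), of which Fkbp5 has fewer reads, with the line of equal levels. Nr3c1 and Nr3c2 lie by the line and the other 8 lie below it.

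Tsc22d3 has alternative starts that lie nearly the length of the gene apart, and the long reads separated them. Of 386 usable spliced reads in replicate 1 and 192 in replicate 2, 241 and 73 began in the first exon of Tsc22d3-201 (chrX:140542846-140543187), which holds the start codon of the 411-base coding sequence of GILZ. This was 272 and 76.1 CPM, a log2 ratio of -1.84 (-2.24 to -1.46). Upstream first exons (between chrX:140598878 and chrX:140600659) had 114 and 87 reads, or 129 and 90.7 CPM, a log2 ratio of -0.51 (-0.93 to -0.09). Tsc22d3-202 and a like form, for which the annotation gives no coding sequence, had 31 and 32 reads, or 35.0 and 33.4 CPM (log2 ratio -0.07, -0.83 to 0.69). Most of the difference in Tsc22d3 reads between the libraries was thus on reads from the GILZ start, and the reads of Tsc22d3-202 and its like were nearly equal in CPM.

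As a share of the usable Tsc22d3 reads, the Tsc22d3-201 start had 62.4% in replicate 1 (57.4 to 67.3%) and 38.0% in replicate 2 (31.1 to 45.3%), a difference of -24.4 percentage points. The upstream first exons had 29.5% (25.03 to 34.4%) and 45.3% (38.1 to 52.6%), and Tsc22d3-202 and its like had 8.03% and 16.7%. The library with more Tsc22d3 reads was the one where the GILZ start led. With annotated models alone, the share of the Tsc22d3-201 start was 88.3% and 67.0%, because nearly all upstream reads were on unannotated models. Among 3156 genes with at least 20 spliced reads in each library and more than 1 first splice donor, the share of the leading one differed between the libraries in 6 (0.190%, Fisher's exact test, Benjamini-Hochberg adjusted). The median size of that difference over the 3156 genes was 2.13 percentage points. By whole splice form, 6 of 4409 genes differed (0.136%). Since the genes were chosen by their difference between these libraries, no test of Tsc22d3 is given.

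The upstream starts of Tsc22d3 were spread over 7 first donors in 7 forms. All 7 forms ran through the exon at chrX:140598128-140598558, which holds the start codon of Tsc22d3-203 and opens a 603-base coding sequence, longer than that of GILZ. The annotated Tsc22d3-203 itself had only 4 and 4 reads. The leading upstream forms were unannotated, with 50 and 40 reads, 35 and 24, and 21 and 17, and each used a first donor that the annotation does not list for the gene. They joined the same 2 last exons as Tsc22d3-201.

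**Figure D3:**
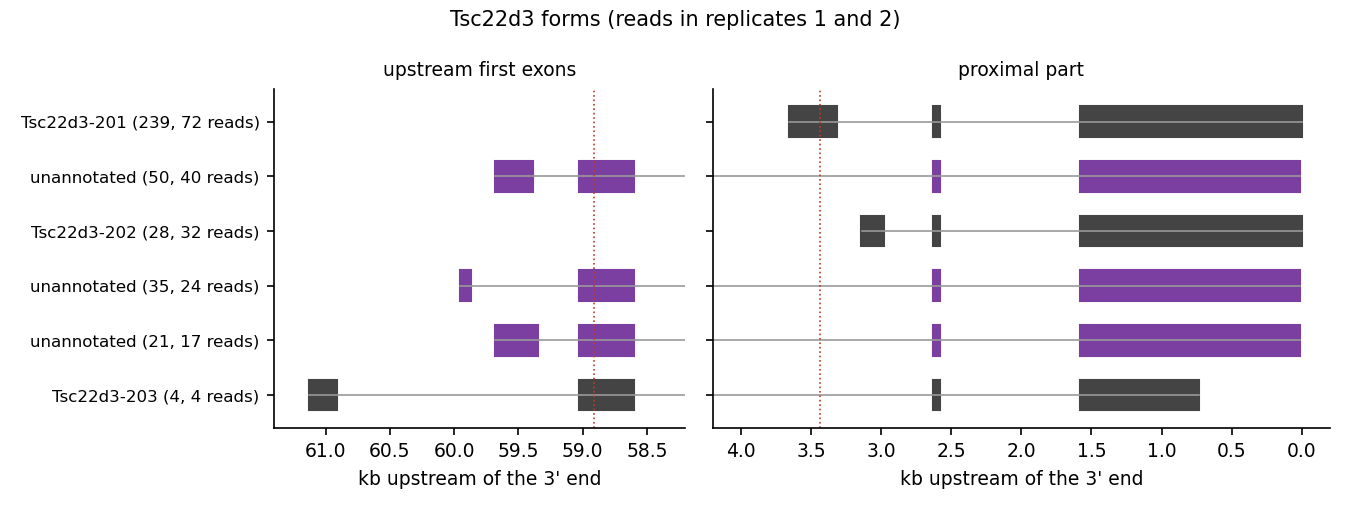
Exons (boxes) of Tsc22d3 forms with at least 8 reads over both libraries, annotated in grey and unannotated in purple, by distance in kb from the 3′ end of the gene, with the dotted lines at the start codons of Tsc22d3-203 (left) and Tsc22d3-201 (right). Reads in replicates 1 and 2 stand beside each form: Tsc22d3-201 had 239 and 72, while the upstream forms differed less between the libraries.

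Sgk1 reads came from a pair of starts less than a kilobase apart. Of 88 and 63 usable spliced reads, the first exon of Sgk1-202 (chr10:21993890-21994181) had 46 and 25, or 52.0 and 26.1 CPM. That of Sgk1-201 (chr10:21994666-21994825) had 39 and 35, or 44.1 and 36.5 CPM. The log2 ratio was -0.997 (-1.76 to -0.26) for the former and -0.27 (-0.97 to 0.42) for the latter, with intervals that overlapped. The Sgk1-202 start thus led in replicate 1 with 52.3% (41.4 to 63.0%), and the Sgk1-201 start led in replicate 2 with 55.6% (42.5 to 68.1%), but the shares overlapped between the libraries. The window before Sgk1-202 is the one with the full response element printed above, and the window before Sgk1-201 did not hold those letters. That element (chr10:21993701-21993715) also lies upstream of the Sgk1-201 start (chr10:21994666), but outside the window searched there. Its absence from that window thus does not tie it to the Sgk1-202 start alone, and its part in either ratio was not tested. Sgk1-203 had 2 reads in each library. The forms share their other exons and differ in the start of the coding sequence, which is 1335 bases in Sgk1-202 and 1293 in Sgk1-201.

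**Figure D4:**
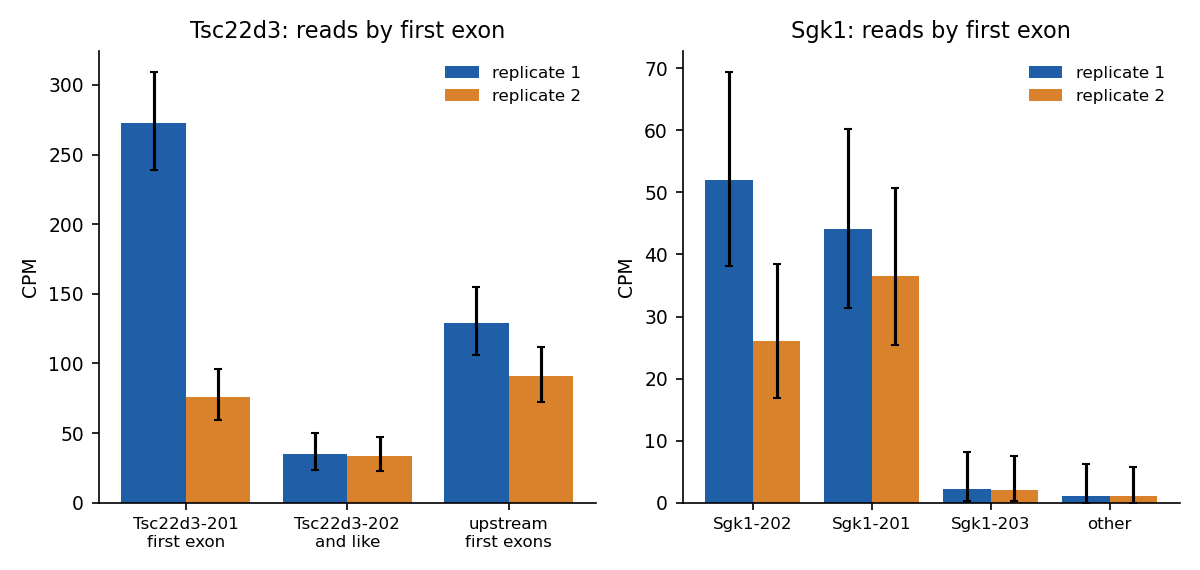
CPM of spliced Tsc22d3 reads (left) and Sgk1 reads (right) by first exon, in replicate 1 (blue) and replicate 2 (orange), with bars for 95% Poisson intervals. The Tsc22d3-201 first exon is far lower in replicate 2 (272 and 76.1 CPM), whereas the bars of Tsc22d3-202 (35.0 and 33.4 CPM) are level.

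Errfi1, Dusp1, Cdkn1a and Fkbp5 used 1 start for most or all of their usable reads. Errfi1 reads all began in the same first exon (chr4:150855073-150855271), 151 of 151 and 52 of 52, and 146 and 48 of them were the form Errfi1-201. Dusp1 reads began in the first exon of Dusp1-202 in 186 of 188 and 144 of 144. Cdkn1a-201 had 26 of 28 and 6 of 6 usable reads, and Cdkn1a-203 had 2 and 0. Fkbp5 had 4 and 1 usable reads, all on Fkbp5-201. Reads of the genomic class were 13 and 4 for Dusp1, 11 and 5 for Tsc22d3, and 6 and 5 for Nr3c1. Counting reads by position on the gene's strand gave the same totals for all 10 genes.

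A list of 32 other genes known to respond to glucocorticoids was compared in the same way. Of its 24 genes with at least 10 reads, 5 were lower in replicate 2 by the two-sided exact binomial test, adjusted by Benjamini-Hochberg over all 9907 genes, 1 was higher and 18 passed in neither direction. By that test 0.888% of all genes were lower and 0.797% higher. The median log2 ratio of the list was -0.57. Klf9, a Krüppel-like repressor, had 286 and 171 reads, or 323 and 178 CPM (log2 ratio -0.86, adjusted exact p = 1.86e-07). Klf15, a regulator of cardiac metabolism, had 101 and 59 (-0.89, adjusted exact p = 0.0131). Mt1, a metallothionein, had 82 and 45 (-0.98, adjusted exact p = 0.0206). Sesn1, a sestrin, had 209 and 151 (-0.59, adjusted exact p = 0.0136). Arrdc2, an arrestin family gene, had 48 and 17 (-1.61, adjusted exact p = 0.00381).

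Angptl4, an inhibitor of lipoprotein lipase, went the other way, with 25 and 64 reads (28.3 and 66.7 CPM; log2 ratio 1.24, adjusted exact p = 0.0162). Of the most abundant genes on the list, Pdk4, a kinase that restrains pyruvate dehydrogenase, had 470 and 609 reads (0.26, 0.08 to 0.43, adjusted exact p = 0.144). Trim63, the muscle ubiquitin ligase MuRF1, had 241 and 258 (-0.02, -0.28 to 0.24, adjusted exact p = 1). Of the 24, 19 had the lower CPM in replicate 2, where 49.9% of all 9907 genes did. Over 1.5-fold lower were 12 of them (11.5% of all genes), and 1 was over 1.5-fold higher (11.0%). Lcn2 and Tat had no read in either library. Lists of this kind were drawn up with earlier results of these libraries known, Arrdc2 and Angptl4 among them, and are not independent evidence of a direction.

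**Figure D5:**
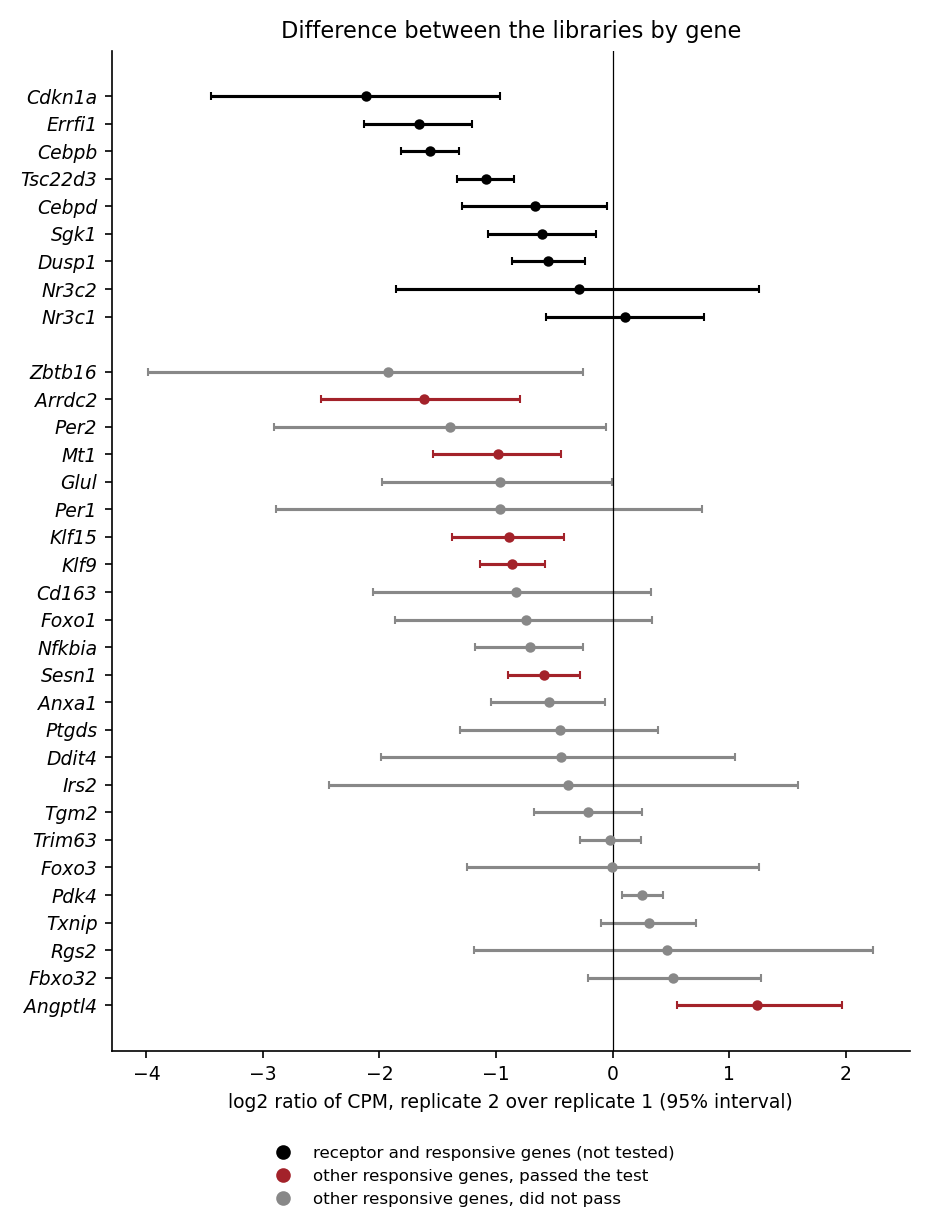
The log2 ratio of CPM, replicate 2 over replicate 1, with 95% intervals that cover counting error only, for the 9 genes with at least 10 reads (black, not tested) and for 24 other genes known to respond to glucocorticoids (red where the adjusted exact binomial test passed, grey where it did not). Ratios run from -2.12 for Cdkn1a to 1.24 for Angptl4.

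Genes that hold the receptor or supply its hormone were taken next. Of 15 tested chaperones and coregulators, 0 were called in either direction and the median log2 ratio was 0.11. Since 0.888% of all genes were lower and 0.797% higher, a count of 0 in 15 says little. The most abundant were Hspa8, which encodes Hsc70, with 1253 and 1218 reads, Hsp90ab1, an Hsp90 that holds the receptor, with 738 and 811, and Fkbp4, a cochaperone that favours its move to the nucleus, with 509 and 609. Of 7 genes of glucocorticoid metabolism and transport, only H6pd had enough reads to test, and it was not called. Hsd11b1, the enzyme that regenerates corticosterone, had 3 reads in each library. Hsd11b2, the enzyme that inactivates it, and Serpina6, its carrier in plasma, had 0 in both. H6pd, which supplies Hsd11b1 with cofactor, had 33 and 33 reads. Of 4 genes of sodium uptake that mineralocorticoids control elsewhere, only Nedd4l could be tested and it was not called. It had 32 and 33 reads, Scnn1a had 1 and 2, and Scnn1b had 0 in both.

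Most relatives and pathway genes passed in neither direction. So did most of all 9907 genes, of which 0.888% were lower and 0.797% higher. The counts that follow are therefore not read as a result about these genes. Of 20 tested paralogs, 0 were lower and 1 was higher, Fkbp1a, the calcium release channel's FKBP12, with 286 and 428 reads (log2 ratio 0.46, adjusted exact p = 0.003). Tsc22d4, a relative of Tsc22d3, had 293 and 347 reads and Fkbp8 had 314 and 315. The median log2 ratio of the paralogs was 0.14, against 0.00 over all genes. Of 11 tested p53 targets, a group to which Cdkn1a also belongs, 0 were called, and the highest were Ccng1 with 273 and 283 reads, Plk2 with 95 and 134 and Aen with 77 and 81. Of the EGF receptor family and its ligands, on whose receptors Errfi1 acts, 2 genes could be tested and 0 were called. Erbb2 had 17 and 21 reads, and Hbegf had 4 and 9.

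Genes of other kinds differed between the same libraries, and their part in the values above was not tested. Of 10 tested immediate early genes, which rise within minutes of stress or stimulation, 3 were lower in replicate 2 and 0 higher. By the same test 0.888% of all genes were lower and 0.797% higher. Of the 10, 9 had the lower CPM in replicate 2, where 49.9% of all 9907 genes did. The median log2 ratio of the 10 was -0.51, near the -0.57 of the other glucocorticoid-responsive genes. Jund had 697 and 585 reads (log2 ratio -0.37, adjusted exact p = 0.00081), Klf6 had 66 and 29 (-1.30, adjusted exact p = 0.00394) and Klf4 had 41 and 17 (-1.39, adjusted exact p = 0.0372). Ier2 had 107 and 106 reads and Klf2 had 115 and 91, and Fos had 1 read in each library. Lung markers summed to 201 CPM in replicate 1 and 12.5 in replicate 2. Of the 8, 6 had a read and 3 could be tested, all lower, led by the club cell gene Scgb1a1 with 111 and 7 reads (log2 ratio -4.10, adjusted exact p = 6.83e-24). Of the alveolar markers, Sftpa1 had 5 and 1 reads, Sftpc 2 and 1 and Sftpd 2 and 0, and Ager and Sftpb were at 0 in both libraries. Erythroid markers summed to 16119 and 13854 CPM, with 4 of 5 lower, and macrophage and leukocyte markers to 228 and 174 CPM, with 0 of 4 called. Cardiomyocyte markers had 2 of 5 higher in replicate 2, Actc1 and Myl2. Adipocyte markers summed to 184 and 231 CPM, with 1 of 5 higher, the brown fat gene Ucp1 (53 and 107 reads, log2 ratio 0.90, adjusted exact p = 0.0165). Of the skeletal muscle list, Ckm, which heart also expresses, was lower (9121 and 9132 reads, log2 ratio -0.12, adjusted exact p = 1.7e-05), and Myh1, Myh2 and Myh4 were at 0 in both. No fibroblast, endothelial or smooth muscle marker, of 5 each, was called.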

How the data were processed

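The deposited tables give read counts per transcript model as whole numbers, 1 table and 1 GTF per library. Per the text deposited with the files, the authors counted reads of their filtered mm10 alignments against GENCODE M21, and per the file headers the models are from TALON. The sources used here give no aligner, filter or version.

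From these counts, reads were summed per gene over all classes and divided by reads other than spike-ins (CPM). The libraries were compared with a two-sided exact binomial test, and form and first-donor shares with Fisher's exact test (scipy 1.17.1), adjusted by Benjamini-Hochberg with a threshold of 0.05. Both tests compare 2 libraries and not conditions. They were checked on counts simulated with counting error only, which cannot show how they hold where libraries vary more. Genes needed at least 10 reads over both libraries, shares at least 20 usable reads in each. Usable models are annotated, or unannotated but neither incomplete nor genomic, and were matched by intron chain. Ratios were also scaled with edgeR 4.0.16 TMM totals and DESeq2 1.42.0 size factors. The genes and lists were chosen with earlier results of these data known. The text names all 10 genes, their forms with at least 5% of usable reads, and in other lists the 3 highest genes and those passing the test. In lists of cell type markers, and for genes with few reads, names are given only where they bear on a value. Sequences come from RefSeq and GENCODE tables; no protein sequence was used here.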

Additional observations from a re-analysis of the deposited data

Results flagged for a closer look

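Reads on unannotated antisense models that overlap the genes are outside the values above, and were above the limit of 3 reads that a count of 0 allows in at least 1 library for 4 genes. Such reads numbered 26 in replicate 1 and 18 in replicate 2 at Sgk1, and 13 and 3 at Cdkn1a. At Fkbp5 there were 12 and 0, more than the gene's own 6 reads in replicate 1, and at Nr3c1 there were 0 and 4. All were on single-exon models.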

How the results depend on the processing

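The choice of models changed some counts. The number of genes whose leading form share differed between the libraries was 6 as reported, 35 with incomplete models counted too and 1 with annotated models alone. The number whose leading first donor share differed was 6 as reported and 2 with annotated models alone. With annotated models alone, the share of the Tsc22d3-201 start was 88.3% in replicate 1 and 67.0% in replicate 2. Fewer genes and reads enter under that setting, 2398 and 1266 genes for the form and donor counts. The summed level of the 10 genes ran from 800.6 to 1711 CPM when 1 library was left out. With cell type markers left aside, 84 listed genes were tested. Of these, 8 were lower in replicate 2 (6 to 8 under the alternatives) and 2 higher (2 under each). By the same test 0.888% of all genes were lower and 0.797% higher. The lists were drawn up with earlier results of these libraries known, so these counts are not independent evidence of a direction. A level counted as moved when it changed by more than 1 SD of the libraries, a share when it left its interval and a count when it changed by over 1.5 times. With no library left out, 59 values kept within these limits and 9 moved, 4 of them levels of single genes. The limit of 1 SD is widest for the genes that differ most between the libraries. Tsc22d3 thus kept within it at 279 CPM with annotated models alone, against 341 as reported. Nr3c1 moved at 37.4 CPM without the genomic class, against 42.2. Leaving out 1 of 2 libraries cannot shift a mean by 1 SD, so that comparison tests nothing. Without replicate 1, the levels of Cebpb, Tsc22d3, Errfi1, Cdkn1a and Fkbp5 were more than 1.5 times lower, at 193, 218, 56.3, 8.34 and 2.08 CPM. Without replicate 2, those of Errfi1, Cdkn1a and Fkbp5 were more than 1.5 times higher, at 177, 36.2 and 6.78 CPM. Where models were left out, levels were divided by the reads of the models kept, a smaller total than in the CPM above. Without the genomic class, the Nr3c1 level was 37.4 CPM. With annotated models alone it was 23.4, Nr3c2 was 5.11 and Cebpd was 69.4. All Cebpd reads are on its annotated model, so its level rose only through the smaller total. No paired analysis was possible because there is 1 group. A library left out of a comparison between the libraries leaves none to compare. Depth limits Fkbp5, Nr3c2 and Cdkn1a most, and a ratio of theirs is fixed only within wide intervals.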
